A study of Mus musculus with 6 samples.

Results

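The claudins and the other proteins of the tight junction were followed in A316 cells, a mouse primary adenocarcinoma line in which Cebpa is knocked out. The set holds 46 of the 19937 named genes on the array: 28 claudins and 18 other genes of the strand, of the adhesion proteins beside it and of the scaffolds under it. Members were taken by gene symbol, and each had 1 probe set that names it alone. Magi2, a scaffold also asked for by name, had no such probe set in the annotation used and was not analysed here, nor were 7 further claudins of the RefSeq gene table. The treated group is 3 arrays of cells exposed to PTC-209, known as an inhibitor of Bmi1 expression, in 0.5% DMSO. The other 3 arrays came from cells given 0.5% DMSO alone, and both groups carry the Cebpa knockout. The sources used here give neither the dose nor the exposure time. All arrays come from 1 line, and nothing says that those of a group were separate cultures, so the p-values measure only how far these samples spread, which may be technical.

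Tight junctions seal the space between neighbouring epithelial cells near their apical side. Claudins are small proteins that span the membrane and form the strands of the junction. Which claudins a cell makes sets which ions pass between cells, since some form channels and others seal. MARVEL proteins such as occludin run in the same strands, immunoglobulin-like proteins such as JAM-A hold the cells together beside them, and scaffolds of the ZO, cingulin and MAGI families tie the strands to actin.

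Expression is given as the authors' log2 RMA value, and a difference is PTC-209 minus DMSO on that scale. A gene rose or fell where limma's p-value, adjusted by Benjamini and Hochberg over all 28192 tested probe sets, was under 0.05. Of the 46 members 5 rose and 8 fell, and 33 did not pass. Together 28.3% of the members passed, close to the 26.6% of all named genes that did. Over all named genes 12.9% rose and 13.7% fell, and the counts by role below stand beside these shares. The median difference of the members was -0.04, against 0.03 over all tested probe sets. For 21 members (45.7%) the PTC-209 and DMSO arrays did not overlap, against 40.5% of all named genes. Bright and dim members together thus held calls at about the rate of the array, and what follows concerns the single genes. In 19 members both groups lay under the median brightness of all tested probe sets, 4.33, and none of these 19 passed. Of the other 27 members 13 passed (48.1%). The share among array genes of like brightness was not computed, so this rate has no match here. The count of falls was 5 without PTC-209 replicate 3, while all 5 rises passed whichever array was left out.

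**Figure D1:**
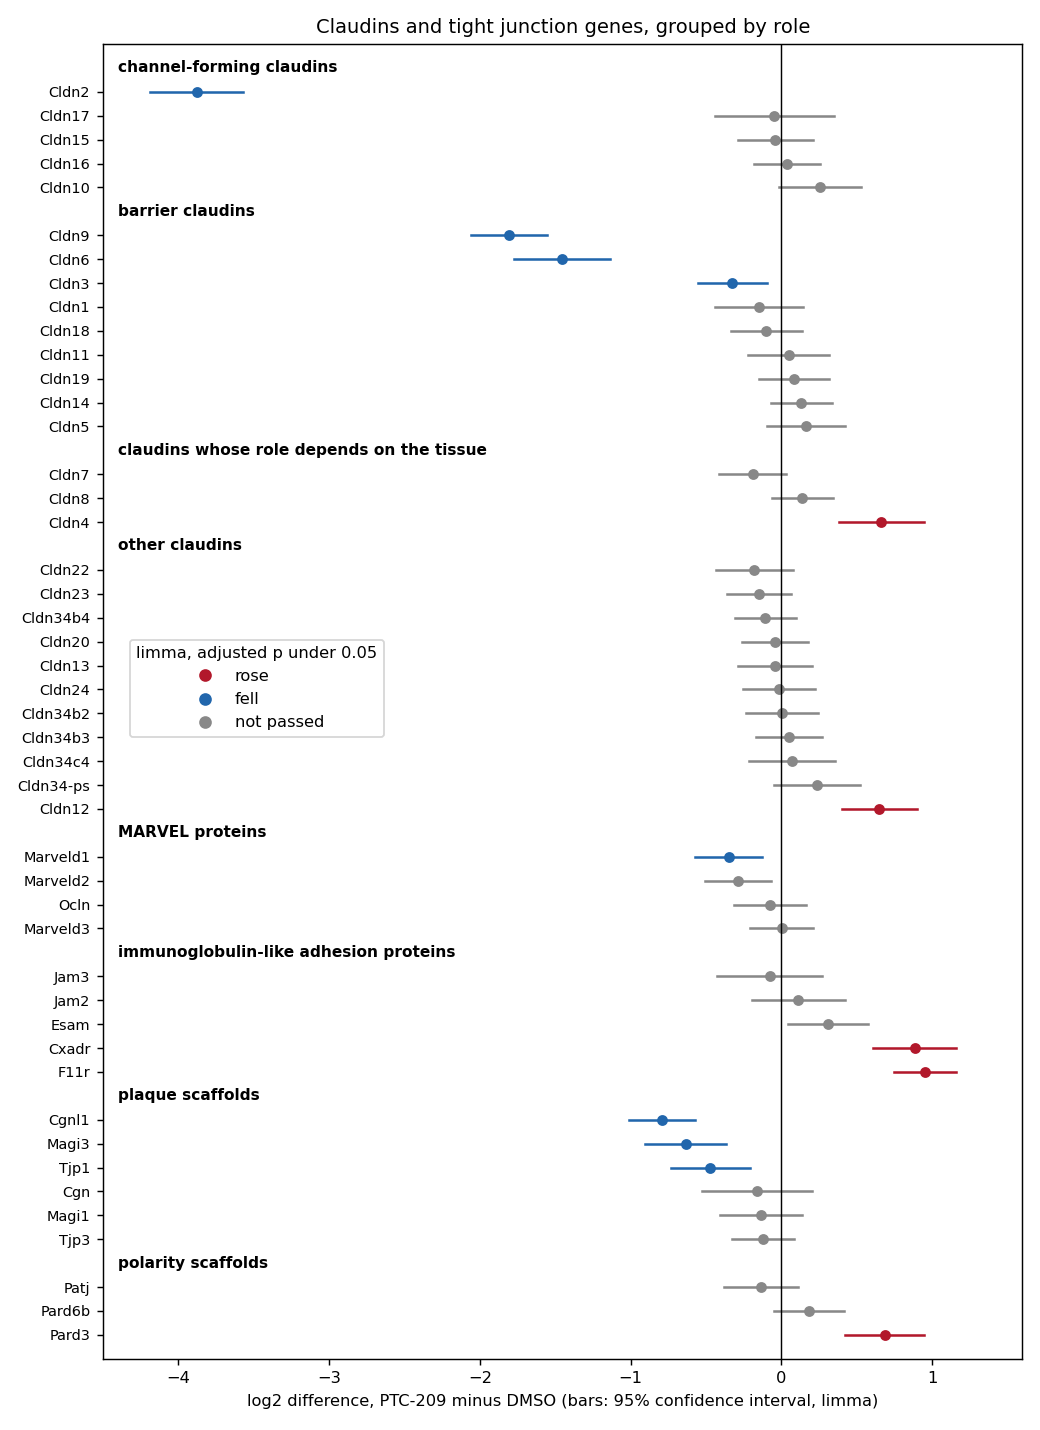
Log2 difference (PTC-209 minus DMSO, horizontal axis) of all 46 members, grouped by role, with the 95% confidence interval from limma. Cldn2 lies far to the left at -3.88, Cldn9 and Cldn6 follow at -1.81 and -1.46, and the 5 genes that rose lie between 0.65 and 0.95.

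Among the claudins that form channels, Cldn2, which lets cations and water pass between cells, had the largest measured fall of the 46 members. It read 3.03, 3.25 and 3.31 on the PTC-209 arrays, against 7.30, 7.09 and 6.83 on the DMSO arrays. Every PTC-209 value lay under the median brightness and every DMSO value far above it. The means were 3.20 ± 0.15 in PTC-209 cells and 7.07 ± 0.24 in DMSO cells (SD, n = 3 each), a measured difference of -3.88 (limma adjusted p = 2.61e-07). The PTC-209 level is among the dim probe sets, where RMA values are compressed, so the size of the fall is uncertain and no fold change is given. In RNA from a whole culture, less RNA per cell and fewer cells that carry it cannot be told apart. The other channel-forming claudins, Cldn10, Cldn15, Cldn16 and Cldn17, were under the median brightness in both groups and did not pass. Cldn15, which forms a sodium channel in the gut, read 3.48 ± 0.06 in PTC-209 cells and 3.52 ± 0.17 in DMSO cells (SD, n = 3 each).

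Of 9 claudins known mainly as barrier formers, Cldn9, Cldn6 and Cldn3 fell and none rose. Cldn9, needed in the inner ear to hold back potassium, read 5.25, 5.26 and 5.47 on the PTC-209 arrays, against 7.29, 7.11 and 7.01 on the DMSO arrays. The groups lay more than a log2 unit apart. It was 3.50-fold lower with PTC-209 (difference -1.81, SE 0.11, limma adjusted p = 3.48e-06). Cldn6, a claudin of embryonic epithelia, read 4.22, 4.34 and 4.78 on the PTC-209 arrays, against 5.91, 5.96 and 5.84 on the DMSO arrays. PTC-209 replicate 3 stood above the other two of its group and still about a log2 unit under the lowest DMSO array. The difference was -1.46 (95% confidence interval -1.78 to -1.14, limma adjusted p = 6.12e-05), and it lay between -1.62 and -1.34 over 14 other settings of the fit.

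Cldn3, a sealing claudin of many epithelia, changed little beside these. It read 7.15, 7.16 and 7.10 on the PTC-209 arrays, against 7.60, 7.47 and 7.31 on the DMSO arrays, so that the groups came close without overlapping. It was 1.25-fold lower (difference -0.33, limma adjusted p = 0.0464), close to the threshold. With 1 array left out the difference lay between -0.40 and -0.26, and the call was lost in 5 of 6 cases. The limma adjusted p was 0.109 without DMSO replicate 1, 0.115 without DMSO replicate 2, and 0.0978, 0.106 and 0.123 without PTC-209 replicates 1, 2 and 3, and it was 0.0631 after median centring. Of the barrier claudins that did not pass, Cldn14 and Cldn18 reached the median brightness in both groups. Cldn18, which has a lung form in alveolar epithelium, read 4.57 ± 0.09 in PTC-209 cells and 4.67 ± 0.12 in DMSO cells (SD, n = 3 each). Cldn1, Cldn5, Cldn11 and Cldn19 were under the median brightness in both groups. The differences of these 6 lay between -0.15 and 0.16.

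Against these falls, Cldn4 and Cldn12 rose. Cldn4, which seals or selects ions depending on the tissue, read 5.74, 5.65 and 5.84 on the PTC-209 arrays, against 4.84, 5.12 and 5.28 on the DMSO arrays. The PTC-209 arrays lay close together and all above the more scattered DMSO arrays. It was 1.58-fold higher (difference 0.66, 95% confidence interval 0.38 to 0.94, limma adjusted p = 0.00357; 0.00178 to 0.0439 over the other settings). Cldn12, a claudin of wide expression, read 8.09, 8.05 and 8.31 on the PTC-209 arrays, against 7.64, 7.45 and 7.41 on the DMSO arrays. Its lowest PTC-209 array was above its highest DMSO array, and its difference was 0.65 (SE 0.11, 1.57-fold higher, limma adjusted p = 0.00203). Cldn7, found in gut epithelium also along the lateral membrane, stood at 5.82 ± 0.10 in PTC-209 cells and 6.01 ± 0.08 in DMSO cells (SD, n = 3 each). Its groups did not overlap, but its difference of -0.19 did not pass (95% confidence interval -0.41 to 0.03, limma adjusted p = 0.227). Cldn8 was under the median brightness in both groups and did not pass.

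The remaining 10 claudins did not pass, with differences between -0.18 and 0.24. Cldn20, Cldn22 and Cldn23 were above the median brightness in both groups. Cldn23 read 5.09 ± 0.10 in PTC-209 cells and 5.24 ± 0.04 in DMSO cells (SD, n = 3 each). Cldn13, Cldn24 and 5 genes of the Cldn34 family were under it in both groups. The copies of that family resemble each other, so the level of each is uncertain. Left out were 4 probe sets that name Cldn10 or Cldn34c4 beside other genes.

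**Figure D2:**
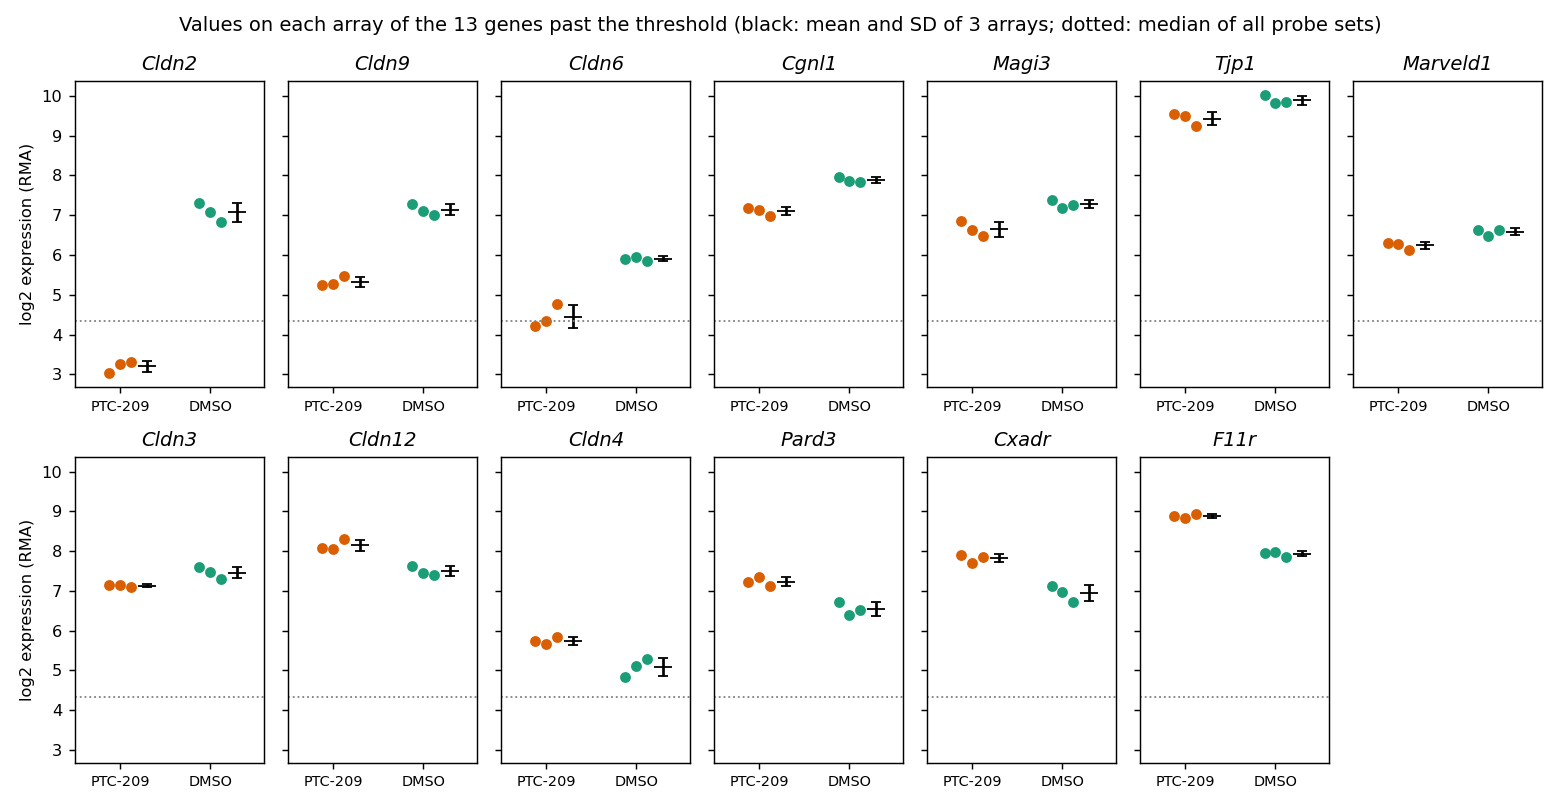
Log2 expression (vertical axis) on each array for the 13 members past the threshold, PTC-209 arrays at the left of each panel and DMSO arrays at the right, with the mean and SD of 3 arrays in black and the median brightness of all tested probe sets, 4.33, dotted. In each panel the groups do not overlap, and of these 13 genes only Cldn2 has all its PTC-209 arrays under the dotted line.

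Several members are neighbours in the genome. In the RefSeq annotation 8 pairs have at most 1 protein-coding gene between them, and of these only Cldn13 and Cldn4 have 1. They were compared after their values were seen. The neighbours on chromosome 17, Cldn6 and Cldn9, both fell. The neighbours on chromosome 5, Cldn4 and Cldn3, changed in opposite directions, with differences of 0.66 for Cldn4 and -0.33 for Cldn3. The call of Cldn3 was close to the threshold, as given above. Cldn3 had the brighter probe set in both groups, so the probe-set values came closer together. Brightness also depends on the probes, so these values do not show which gene had more RNA. The log2 value of Cldn4 minus that of Cldn3 lay between -1.50 and -1.26 on the PTC-209 arrays, against -2.75 to -2.03 on the DMSO arrays, a shift of 0.99. The shift had p = 0.1 by a two-sided exact permutation test over the arrays, the smallest p that 3 arrays against 3 allow, and 0.2 after adjustment over the 8 pairs of neighbouring members. The value of Cldn6 minus that of Cldn9 was -1.03 to -0.69 on the PTC-209 arrays, against -1.38 to -1.15 on the DMSO arrays (p = 0.1 in the same exact test, 0.2 adjusted over the pairs). The pair of Cldn13 and Cldn4 (shift of Cldn13 minus Cldn4 -0.70) and the pair of Cldn34b3 and Cldn34b4 (shift 0.16) reached the same exact p = 0.1, with Cldn13 and both Cldn34 genes dim. The other 4 pairs had p between 0.2 and 0.4. Ocln and Marveld2, neighbours on chromosome 13, had differences of -0.07 and -0.29, and neither passed.

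**Figure D3:**
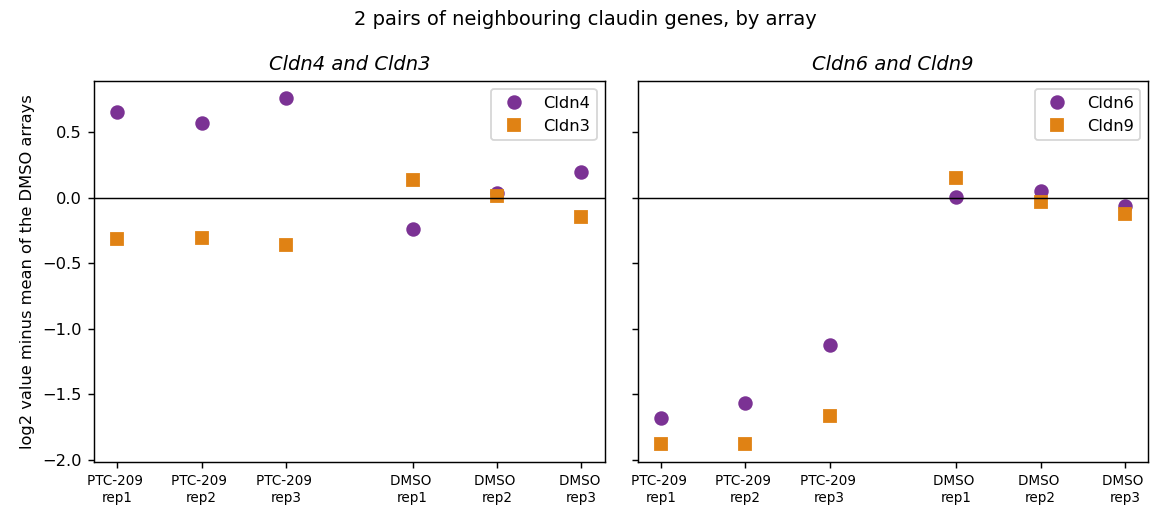
Log2 value minus the mean of the DMSO arrays (vertical axis) on each array, PTC-209 arrays at the left and DMSO arrays at the right of each panel. Cldn4 and Cldn3 lie on opposite sides of 0 on all 3 PTC-209 arrays, while Cldn6 and Cldn9 both lie more than a log2 unit under 0 there.

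The promoters of 5 members are printed to show the sequence at genes that moved in different directions: Cldn2 and Cldn6, which fell, the neighbours Cldn3 and Cldn4, and F11r, which rose. Each is 300 bases from RefSeq (build GRCm38.p6), 250 before the annotated start and 50 after it, 5′ to 3′ on the strand of the gene. Capitals mark matches on either strand to 6 motifs, chosen after the values were seen. The E-box CAGGTG is bound by Snail and ZEB factors, which repress epithelial genes. The motif TGANTCA is that of AP-1 factors, and the C/EBP family to which Cebpa belongs was searched as TTGCNNAA. The TATA box was searched as TATAAA, the motif of Grainyhead factors, which act in epithelia, as AACCNGTT, and the GC box of Sp factors as GGGCGG. No matches overlap in these 5 windows.
Cldn2, chrX:139800558-139800857, plus strand: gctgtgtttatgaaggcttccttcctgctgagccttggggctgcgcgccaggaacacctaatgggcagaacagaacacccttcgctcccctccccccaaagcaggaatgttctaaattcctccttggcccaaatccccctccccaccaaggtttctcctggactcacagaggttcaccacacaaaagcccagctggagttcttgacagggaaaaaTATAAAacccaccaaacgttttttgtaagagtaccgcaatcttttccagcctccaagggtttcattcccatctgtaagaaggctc
Cldn6, chr17:23679115-23679414, plus strand: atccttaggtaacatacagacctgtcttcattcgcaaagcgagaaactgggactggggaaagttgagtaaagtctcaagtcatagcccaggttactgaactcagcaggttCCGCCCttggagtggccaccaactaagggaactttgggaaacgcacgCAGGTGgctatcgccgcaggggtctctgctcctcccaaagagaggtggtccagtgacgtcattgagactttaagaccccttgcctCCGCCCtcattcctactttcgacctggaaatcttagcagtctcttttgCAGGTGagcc
Cldn3, chr5:134985964-134986263, plus strand: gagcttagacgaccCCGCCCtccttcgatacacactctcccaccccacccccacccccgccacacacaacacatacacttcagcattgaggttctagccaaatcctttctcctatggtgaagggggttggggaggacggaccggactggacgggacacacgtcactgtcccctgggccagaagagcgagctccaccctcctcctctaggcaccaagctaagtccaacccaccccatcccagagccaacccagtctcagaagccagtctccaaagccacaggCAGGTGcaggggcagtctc
Cldn4, chr5:134946885-134947184, minus strand: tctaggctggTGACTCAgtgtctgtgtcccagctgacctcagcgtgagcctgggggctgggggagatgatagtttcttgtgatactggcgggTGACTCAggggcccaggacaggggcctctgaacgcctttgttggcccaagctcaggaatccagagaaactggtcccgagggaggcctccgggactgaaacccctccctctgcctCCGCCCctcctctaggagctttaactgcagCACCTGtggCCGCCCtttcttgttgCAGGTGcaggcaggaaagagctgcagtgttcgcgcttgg
F11r, chr1:171437311-171437610, plus strand: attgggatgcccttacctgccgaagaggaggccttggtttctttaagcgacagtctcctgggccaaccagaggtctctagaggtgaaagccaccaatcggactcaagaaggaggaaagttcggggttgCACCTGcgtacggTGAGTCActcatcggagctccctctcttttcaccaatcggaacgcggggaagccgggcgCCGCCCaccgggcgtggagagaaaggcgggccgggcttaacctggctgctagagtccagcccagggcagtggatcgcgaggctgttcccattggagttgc

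In these 5 windows the TATA box was matched in Cldn2 alone, beginning 35 bases before the start, and the window of Cldn2 held none of the other motifs. The E-box CAGGTG was matched in the windows of Cldn3, Cldn4, Cldn6 and F11r, and so both in genes that fell and in genes that rose. In Cldn4 it stood 14 bases before and 11 bases after the start, and in Cldn6 93 bases before and 40 after. The AP-1 motif was matched in Cldn4, 240 and 158 bases before the start, and in F11r, 109 before. Of the 32851 windows of this length in the table, 20.2% held CAGGTG, 7.81% the AP-1 motif, 13.6% the TATA box, 10.8% the C/EBP motif, 2.09% the Grainyhead motif and 35.7% the GC box. A window was listed for 35 members, 50 windows in all. Of these the E-box was in 16 (32%), the AP-1 motif in 6 (12%), the TATA box in 4 (8%), the C/EBP motif in 1, that of Cldn14, the Grainyhead motif in 2 (4%) and the GC box in 26 (52%). Beside the printed windows, the AP-1 motif was matched in Cldn15, Cldn34b2, Cldn34b4 and Patj, which did not pass. It was not matched in the listed windows of Cldn12 and Pard3, which rose. The TATA box was also matched in Pard3 and in Marveld2, which did not pass. A match is a run of letters and not a measured site.

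The MARVEL proteins changed little. Marveld1, a MARVEL-domain membrane protein, read 6.30, 6.29 and 6.13 on the PTC-209 arrays, against 6.64, 6.49 and 6.64 on the DMSO arrays. The PTC-209 values lay just under those of DMSO (1.27-fold lower, difference -0.35, limma adjusted p = 0.0298). The call was lost without DMSO replicate 1 (limma adjusted p = 0.0662) or 3 (0.0976) and without PTC-209 replicate 1 (0.05), 2 (0.0654) or 3 (0.105). Marveld2, tricellulin, which closes the corners where several cells meet, read 7.65 ± 0.06 in PTC-209 cells and 7.94 ± 0.09 in DMSO cells (SD, n = 3 each) and did not pass (difference -0.29, limma adjusted p = 0.0596). It passed with limma after cyclic loess (adjusted p = 0.019), with a trended and robust prior (0.0321) and without dim probe sets (0.0287). Ocln, occludin, stood at 6.05 ± 0.09 in PTC-209 cells and 6.13 ± 0.14 in DMSO cells (SD, n = 3 each), a difference of -0.07 (95% confidence interval -0.31 to 0.17). Marveld3, a further protein of the strands, had a difference with a 95% confidence interval of -0.21 to 0.21. Neither passed.

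Of the 5 immunoglobulin-like adhesion proteins, F11r and Cxadr rose and none fell. F11r, JAM-A, an adhesion protein that binds Pard3, had the largest rise among the 46 members. It read 8.88, 8.84 and 8.92 on the PTC-209 arrays, against 7.96, 7.97 and 7.86 on the DMSO arrays, with little scatter in either group. It was 1.94-fold higher (difference 0.95, 95% confidence interval 0.75 to 1.16, limma adjusted p = 5.27e-05). Cxadr, known as the receptor of coxsackieviruses and adenoviruses, read 7.91, 7.70 and 7.86 on the PTC-209 arrays, against 7.13, 6.96 and 6.72 on the DMSO arrays. Its groups lay well apart (1.85-fold higher, difference 0.89, SE 0.12, limma adjusted p = 0.000548). Jam2, Jam3 and Esam, adhesion proteins also known from endothelium, were under the median brightness in both groups and did not pass. The arrays of Esam did not overlap, at 3.78 ± 0.18 in PTC-209 cells and 3.47 ± 0.11 in DMSO cells (SD, n = 3 each, limma adjusted p = 0.0934).

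Of the 6 measured plaque scaffolds, Cgnl1, Magi3 and Tjp1 fell and none rose. Cgnl1, paracingulin, a relative of cingulin at the junction, read 7.17, 7.13 and 6.99 on the PTC-209 arrays, against 7.97, 7.87 and 7.83 on the DMSO arrays. The groups lay well apart (1.73-fold lower, difference -0.79, SE 0.10, limma adjusted p = 0.000277). Magi3, a scaffold with several PDZ domains, read 6.85, 6.62 and 6.47 on the PTC-209 arrays, against 7.39, 7.19 and 7.26 on the DMSO arrays. All PTC-209 arrays were lower (1.55-fold lower, SE of the log2 difference 0.12, limma adjusted p = 0.00339; 0.00118 to 0.0477 over the other settings). Tjp1, ZO-1, which ties claudins to actin, read 9.55, 9.49 and 9.23 on the PTC-209 arrays, against 10.02, 9.81 and 9.85 on the DMSO arrays. All PTC-209 arrays were lower, replicate 3 the most. The difference was -0.47 (1.39-fold lower, limma adjusted p = 0.0151), and the call was lost without PTC-209 replicate 3 (limma adjusted p = 0.0543). It was also lost with a minimum fold change of 1.2 (limma adjusted p = 0.299). The 3 scaffolds that did not pass, Cgn (cingulin), Magi1 and Tjp3, had differences between -0.16 and -0.12.

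Among the polarity scaffolds, Pard3, which with Pard6 and an atypical protein kinase C marks the apical border, rose. It read 7.22, 7.34 and 7.12 on the PTC-209 arrays, against 6.73, 6.38 and 6.51 on the DMSO arrays. The groups did not overlap (1.61-fold higher, difference 0.69, 95% confidence interval 0.43 to 0.95, limma adjusted p = 0.00187). Pard6b read 6.87 ± 0.11 in PTC-209 cells and 6.68 ± 0.10 in DMSO cells (SD, n = 3 each), with a 95% confidence interval of the difference of -0.05 to 0.42. Patj, a scaffold of the Crumbs complex, had a difference of -0.13 (95% confidence interval -0.38 to 0.11). Neither passed.

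**Figure D4:**
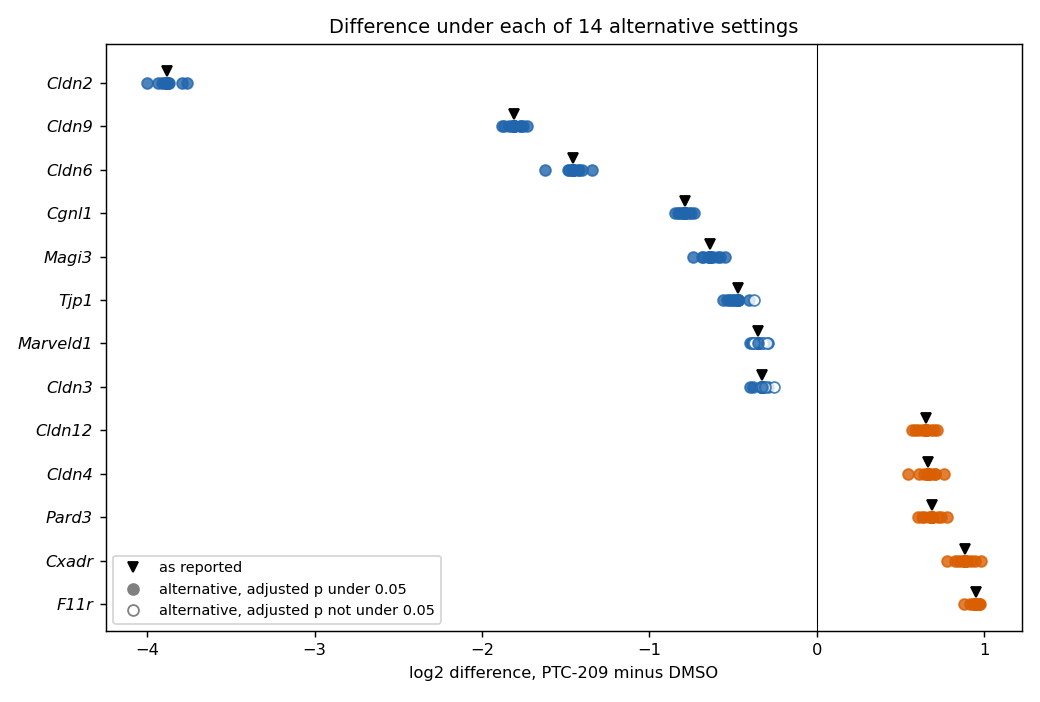
Log2 difference (PTC-209 minus DMSO, horizontal axis) of the 13 members past the threshold as reported (triangles) and under 14 other settings of the fit (circles, filled where the adjusted p stayed under 0.05). For 10 genes all circles are filled, and open circles appear for Cldn3, Marveld1 and Tjp1.

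Other genes of epithelial junctions were followed through 5 lists, whose counts stand beside the 12.9% of all named genes that rose and the 13.7% that fell. Of 28 plaque and signalling partners of the tight junction 6 rose and 3 fell (median difference 0.11), and after cyclic loess 6 rose and 5 fell. With 1 array left out, 4 to 8 of these partners rose. Rab13, a small GTPase of the traffic of junction proteins, fell to 5.34 ± 0.11 in PTC-209 cells, against 6.76 ± 0.26 in DMSO cells (SD, n = 3 each). Mpdz, a scaffold with many PDZ domains, and Ildr2, a protein of tricellular contacts, fell with differences of -0.68 and -0.66. Arhgef2, a guanine nucleotide exchange factor, rose by 0.86. Of 19 genes of the polarity complexes 2 rose and 2 fell (median difference 0.03). Mpp5, the Pals1 scaffold that joins Crumbs to Patj, rose to 9.45 ± 0.05 in PTC-209 cells, against 8.15 ± 0.04 in DMSO cells (SD, n = 3 each), and Pard6a rose by 0.57. Mpp7, a related scaffold, had 5.63 ± 0.28 in PTC-209 cells and 7.01 ± 0.13 in DMSO cells (SD, n = 3 each) and fell. Pard6g also fell, with both groups under the median brightness (difference -0.46), and its call was lost without DMSO replicate 1, PTC-209 replicate 1 or PTC-209 replicate 3, which left 1 fall in the list.

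Of 18 adherens junction genes 5 rose and 4 fell (median difference 0.00), and 3 rose and 4 fell after cyclic loess or median centring. Pvr, a nectin-like adhesion protein, rose by 1.11 and Jup, plakoglobin, by 0.68. Nectin3, an adhesion protein, and Ablim1, an actin-binding protein, fell with differences of -0.67 and -1.05, Ablim1 being under the median brightness in PTC-209 cells. Named after their values were seen, Afdn, Ctnna1 and Cdh1 also rose and Nectin2 and Ajuba also fell. Cdh1, E-cadherin, stood at 10.25 ± 0.09 in PTC-209 cells and 9.90 ± 0.13 in DMSO cells (SD, n = 3 each). Its call was lost after cyclic loess (limma adjusted p = 0.143), median centring (0.0609) or quantile normalization again (0.13). A minimum fold change of 1.2 also lost it (limma adjusted p = 0.896). The call of Cdh1 was lost too without DMSO replicate 2 (limma adjusted p = 0.127) or 3 (0.121). Without PTC-209 replicate 1, 2 or 3 the limma adjusted p was 0.124, 0.089 and 0.0602. The count of rises was 3 when DMSO replicate 2, DMSO replicate 3, PTC-209 replicate 1 or PTC-209 replicate 2 was left out. Of 12 desmosome genes 1 rose and 4 fell (median difference -0.17). Dsp, desmoplakin, rose by 0.82, while Ppl (periplakin), Pkp4 and Perp fell with differences of -1.44, -0.53 and -0.50, and Pkp3, named after its value was seen, with -0.40.

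Of 26 epithelial and mesenchymal transition factors 8 rose and 2 fell (median difference 0.24). The factors that rose include ones known to repress epithelial genes and ones known from epithelia. Zeb2 and Snai2, known repressors of epithelial junction genes, rose by 0.89 and 0.73, Snai2 being named after its value was seen. Also named after their values were seen, Snai1, Zeb1, Twist1 and Twist2 of the same list did not pass. Their differences were -0.04, 0.11, 0.25 and 0.30, and Zeb1 and Twist1 were under the median brightness in both groups. Klf5, a factor of many epithelia, rose by 1.18, and Esrp1, an epithelial splicing regulator kept in this list, by 0.76. Ehf and Elf3, epithelial ETS factors, fell with differences of -0.97 and -0.75, and both were under the median brightness in PTC-209 cells. Elf3 was named after its value was seen.

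**Figure D5:**
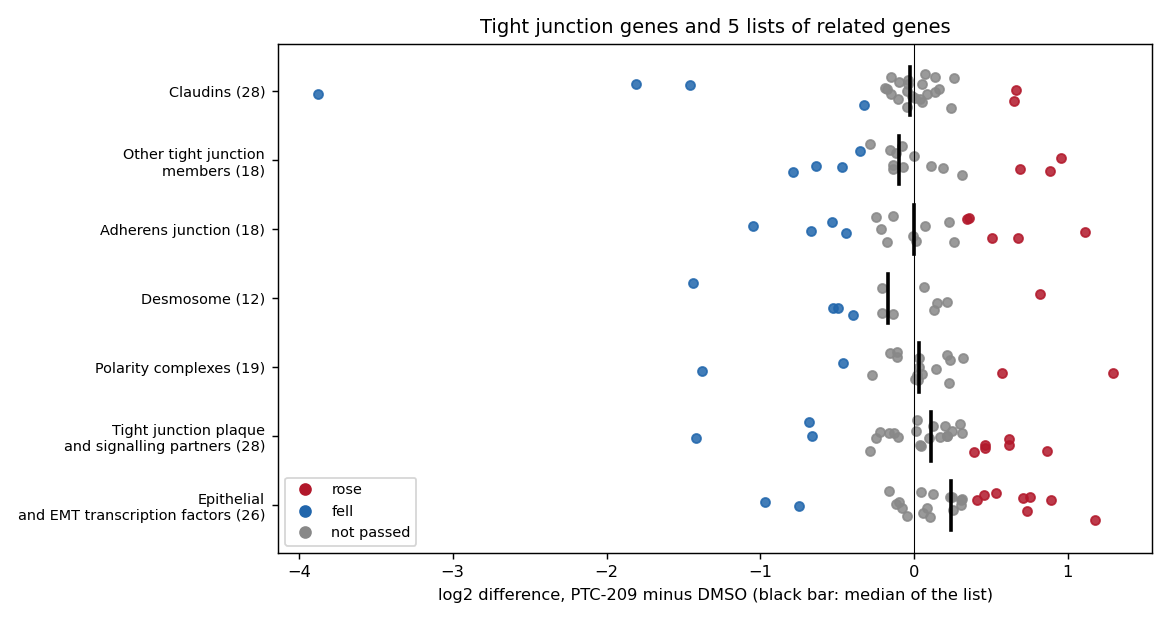
Log2 difference (PTC-209 minus DMSO, horizontal axis) of each gene of the claudins, the other members and 5 lists of related genes, with the number of genes in parentheses and the median of each as a black bar. The medians run between -0.17 for the desmosome genes and 0.24 for the transition factors, and each of the 7 groups holds genes that rose and genes that fell.

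Within the groups the arrays correlated at 0.992 to 0.996, and between them at 0.970 to 0.974. Bmi1 stood at 7.01 ± 0.07 in PTC-209 cells and 7.55 ± 0.14 in DMSO cells (SD, n = 3 each) and fell (limma adjusted p = 0.00424). Cebpa was under the median brightness in both groups, and whether its probes lie in the deleted part is not given. Of 10 epithelial markers 9 reached the median brightness in at least 1 group, and Grhl2 lay under it in both. Their list mean was 8.35 to 8.47 on the PTC-209 arrays and 8.66 to 8.81 on the DMSO arrays, with 2 that rose and 4 that fell. Beside all marker counts here stand the 12.9% of all named genes that rose and the 13.7% that fell. Krt8 read 10.58 in PTC-209 cells and 11.41 in DMSO cells, and Krt18 10.25 in PTC-209 cells and 11.30 in DMSO cells, and both fell. The 2 epithelial markers that rose were Cdh1, by 0.35, and Esrp1, by 0.76. The call of Cdh1 was lost under several settings, as given above. Epcam, at 7.60 in PTC-209 cells and 7.89 in DMSO cells, did not pass. Of 10 lung epithelial markers 4 reached the median brightness in at least 1 group, Abca3 and Ager being the brightest, and none passed. Nkx2-1 and Sftpc, which define that epithelium, were under the median brightness in both groups. The list mean of the lung markers was 4.07 to 4.14 on the PTC-209 arrays and 4.01 to 4.05 on the DMSO arrays. Of 10 endothelial markers 2 fell, and only 3 reached the median brightness in a group. The endothelial list mean was 4.101 to 4.21 on the PTC-209 arrays and 4.40 to 4.45 on the DMSO arrays. Cdh5 read 8.15 in PTC-209 cells and 9.48 in DMSO cells, and Flt1 5.51 in PTC-209 cells and 7.63 in DMSO cells. The lower list mean rests on these genes. The other endothelial markers did not pass, with differences from -0.04 (Emcn) to 0.30 (Kdr). Pecam1 was under the median brightness in both groups. Of 9 leukocyte markers 1 rose and 1 fell, and only 3 reached the median brightness in a group. The leukocyte list mean was 4.39 to 4.43 on the PTC-209 arrays and 4.12 to 4.21 on the DMSO arrays. Cd68 read 10.03 in PTC-209 cells and 7.42 in DMSO cells, and Cd14 5.88 in PTC-209 cells and 6.76 in DMSO cells. The higher list mean rests mostly on Cd68. The other leukocyte markers did not pass, with differences from -0.26 (Adgre1) to 0.23 (Lyz2). Ptprc was under the median brightness in both groups. Of 10 fibroblast markers, led by Col1a1 and Col1a2, none passed (list mean 3.54 to 3.67 on the PTC-209 arrays and 3.49 to 3.58 on the DMSO arrays). The part of other cell types in the differences above was not tested.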

How the data were processed

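RNA of 3 PTC-209 and 3 DMSO samples of A316 cells, as labelled, was measured on Affymetrix gene arrays. The authors deposited 1 table of log2 values made with RMA, per the submitters' processing notes, with a version and a genome build not given in the sources used here. RMA corrects background, makes the arrays' distributions equal and sums probes into probe sets, so a shift common to most genes is removed and dim genes are compressed. A free-text label that speaks of embryos goes against the sample titles and was not used. Of 34760 probe sets 6568 are controls; 28192 were tested, of which 21640 have 1 gene symbol, 1321 several and 5231 none listed. Where a gene had several, the one brightest on average over the 6 arrays stood for it (19937 genes).

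limma 3.58.1 (R 4.3.3) was fitted to the log2 values with group as the only term, with Benjamini-Hochberg adjustment across every tested probe set. Dim means under the median brightness of tested probe sets, 4.33. The number of arrays limits the precision; the fit had 4 residual degrees of freedom. The members and lists were chosen with earlier results of these data known. Named were every member past the threshold, the 2 brightest members of each role, up to 4 genes past the threshold with the largest difference from each list, Bmi1, Cebpa, and the brightest and defining markers. As 14 alternatives, each array was left out, dim probe sets were dropped, a gene's probe sets were averaged, a fold change of at least 1.2 was asked for, the prior was trended and robust, replicate number was a block, and values were scaled by cyclic loess, median centring or quantile normalization again.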

Additional observations from a re-analysis of the deposited data

How the results depend on the processing

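Of the 13 members past the threshold 10 stayed past it under all 14 alternatives, and of the 33 others 32 stayed short of it wherever they were tested, Marveld2 being the exception. The 19 dim members were not tested in the fit without dim probe sets, which left them 13 alternatives. No sign changed among the genes called. Bmi1 did not pass with a minimum fold change of 1.2 (limma adjusted p = 0.0942), nor did Cldn3, Marveld1 or Tjp1. With a minimum fold change of 1.2, which asks more of each gene by construction, 5 members fell, 1270 genes of the array rose and 1610 fell, 2 adherens junction genes rose and 2 fell, 1 desmosome gene fell, 1 polarity gene rose and 1 fell, 2 plaque partners rose, and 5 transition factors rose and 1 fell. Cyclic loess gave 3 rises among adherens junction genes and 5 falls among plaque partners, median centring gave 3 rises among adherens junction genes, and without dim probe sets, which leaves fewer genes, 1 polarity gene fell; for the scalings the cause was not tested. Leaving out 1 array at a time gave 5 to 7 members that fell, 3 to 6 adherens junction genes that rose and 1 to 2 polarity genes that fell. It also gave 4 to 8 plaque partners that rose. The replicate numbers do not clearly pair the arrays: same-numbered arrays had correlations of their deviations from the group means of 0.231, 0.070 and 0.073. With the replicate number as a block 5 members rose and 8 fell, with 2689 genes of the array higher and 2844 lower, and no member's call changed. Dim signal limits 19 members, for which a change may not be seen.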
